A study of Mus musculus with 3 samples.

Results

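The miR-183 cluster is a group of 3 microRNA (miRNA) genes, Mir183, Mir96 and Mir182, that lie side by side on mouse chromosome 6. Its mature products were followed here in exosomes, small vesicles that cells release, from cultured mouse macrophages. The members are 4 of the 1915 mature mouse miRNAs in the tables, listed as mmu-miR-183-5p, mmu-miR-183-3p, mmu-miR-96-5p and mmu-miR-182-5p and written below without the species prefix. They were picked by name because miR-183-5p was abundant in these libraries, so that levels, ranks and arm ratios are given as descriptions with no test. The other arms of the hairpins, miR-96-3p and miR-182-3p, are in the tables too and are given beside them.

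All libraries came from wild type C57BL/6 mice and formed 1 group. Marrow from femurs and tibias was grown with M-CSF, the growth factor of the macrophage lineage, for 24 h. Medium with exosome-free serum then followed, and the vesicles that 72 h of macrophage culture shed into it were pelleted by ultracentrifugation. There were 3 small RNA libraries, numbered 1 to 3 after their titles, and no treated group, no library of the cells themselves and no medium without cells, so no comparison between conditions could be made. Whether they stem from separate mice or cultures is not stated, so the SDs here may be those of technical repeats.

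The 3 hairpins of the cluster are cut from 1 primary transcript, first by Drosha in the nucleus and then by Dicer, which leaves a 5p and a 3p strand from each. One strand is loaded into an Argonaute protein and pairs through its seed, bases 2 to 8, with messenger RNAs that it represses. The cluster is best known from sensory organs, where hair cells of the inner ear and photoreceptors make it in large amounts, and changes in the seed of miR-96 cause progressive hearing loss in humans and mice. In the mouse immune system miR-182 is induced by interleukin 2 in helper T cells and restrains Foxo1, and the cluster has been studied in macrophages that meet bacteria.

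The mature sequences are shown because the 5p arms are close relatives. They are written 5′ to 3′ from RefSeq (GRCm38.p6), with the seed in capitals.
miR-183-5p: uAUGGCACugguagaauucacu
miR-96-5p: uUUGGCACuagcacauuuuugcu
miR-182-5p: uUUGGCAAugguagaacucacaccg
miR-183-3p: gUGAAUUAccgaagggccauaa

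Each 5p arm starts with U and carries GGCA at bases 4 to 7. Counted from the 5′ end with no gaps, miR-183-5p and miR-96-5p differ in the seed by A2U. The seeds of miR-96-5p and miR-182-5p differ by C8A, and those of miR-183-5p and miR-182-5p by both changes. Outside the seed miR-183-5p and miR-182-5p are nearly the same, with U17C and U22A as the other differences over 22 bases, whereas miR-183-5p and miR-96-5p share 13 of 22 bases. No other miRNA among the 1623 table names matched to a RefSeq sequence has the seed of miR-183-5p, miR-96-5p, miR-182-5p or miR-183-3p. GGCA at bases 4 to 7 occurs in 11 of those 1623, and the 8 that are not in the cluster had at most 1.01 counts per 1000000 miRNA counts (CPM) by the mean, with miR-326-5p the highest of them. A start with U is found in 40.2% of matched miRNAs and in 54.6% of the 119 matched ones whose mean was at least 100 CPM. The tetramers GGAG and CCCU, described as vesicle sorting motifs in human T cells, were looked for on the mature strand. None of the 4 arms holds either, and they occur in 14.2% and 11.6% of matched miRNAs.

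The hairpins are shown to place both arms, which are in capitals, with the loop between them. Written 5′ to 3′ on the minus strand from the same RefSeq build, Mir183 lies at chr6:30169668-30169737, Mir96 at chr6:30169446-30169551 and Mir182 at chr6:30165918-30165992.
Mir183: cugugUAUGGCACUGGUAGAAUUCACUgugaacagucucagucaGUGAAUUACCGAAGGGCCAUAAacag
Mir96: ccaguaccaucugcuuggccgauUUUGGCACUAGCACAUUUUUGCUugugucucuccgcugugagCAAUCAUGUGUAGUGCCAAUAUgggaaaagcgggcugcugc
Mir182: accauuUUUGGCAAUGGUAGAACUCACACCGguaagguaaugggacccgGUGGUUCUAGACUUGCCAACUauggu

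Read along the transcript, Mir183 comes first, Mir96 follows after 116 bases and Mir182 after another 3453 bases. In the GENCODE M21 annotation (GRCm38) no other gene overlaps this stretch of 3820 bases. Rncr4, a long noncoding RNA first described in the mouse retina, starts 3155 bases upstream of Mir183 on the opposite strand, and the protein-coding Nrf1 ends 12459 bases beyond Mir182. RNAfold gave the hairpins minimum free energies of -26.2, -47.9 and -29.9 kcal/mol for Mir183, Mir96 and Mir182. Per base, 63.7%, 29.95% and 52.3% of the 1005 RefSeq mouse hairpins folded had a more negative energy, so none of the 3 stands at an extreme.

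The libraries held between 2489984 and 3208617 counts assigned to miRNAs, and a count of 0 allows up to 0.935 to 1.20 CPM (3 counts). Intervals and these limits cover counting error only. Library 1 stood apart from the others. Of the 134 miRNAs that averaged 100 CPM or more, scaled with TMM factors from edgeR, 41 had levels in library 1 that were over 4-fold away from those in library 2, and 44 from those in library 3. For library 2 against library 3 the number was 1. Their median log2 ratio depended on scaling, at 0.62 for library 1 over library 2 and 0.96 for library 1 over library 3 with library totals, against 0.0056 and 0.098 with TMM factors. Of the list of myeloid miRNAs, all 8 are in the tables and 7 had counts in every library, at a summed 71314, 345021 and 300167 CPM in libraries 1, 2 and 3. Most of that was miR-21a-5p, at 37316, 305278 and 261488 CPM, and miR-146a-5p was nearly level at 33401, 35012 and 36542.5 CPM. MiR-223-3p, highest in neutrophils, had 35.6, 52.6 and 33.0 CPM. MiR-142a-3p (42.9, 1364 and 819 CPM), miR-155-5p (74.8, 2388 and 829 CPM) and miR-142a-5p were lowest in library 1. MiR-342-3p (149, 106 and 65.4 CPM) and miR-511-3p (3.32, 0.803 and 0 CPM) were highest there.

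The cluster's counts were mostly those of the 5p arms of miR-183 and miR-182. MiR-96-5p took 1.18%, 7.02% and 3.15% of them in libraries 1, 2 and 3. The 4 arms took 0.819%, 1.35% and 1.87% of miRNA counts in libraries 1, 2 and 3 (Wilson 95% intervals 0.809 to 0.830, 1.34 to 1.37 and 1.86 to 1.89), a mean of 1.35% ± 0.528 (SD, n = 3). MiR-183-5p led by the mean, miR-182-5p came next, miR-96-5p was 14.8-fold below miR-183-5p and miR-183-3p was near the limit of detection. In bulk exosome RNA, fewer vesicles with a miRNA and less of it per vesicle cannot be told apart.

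**Figure D1:**
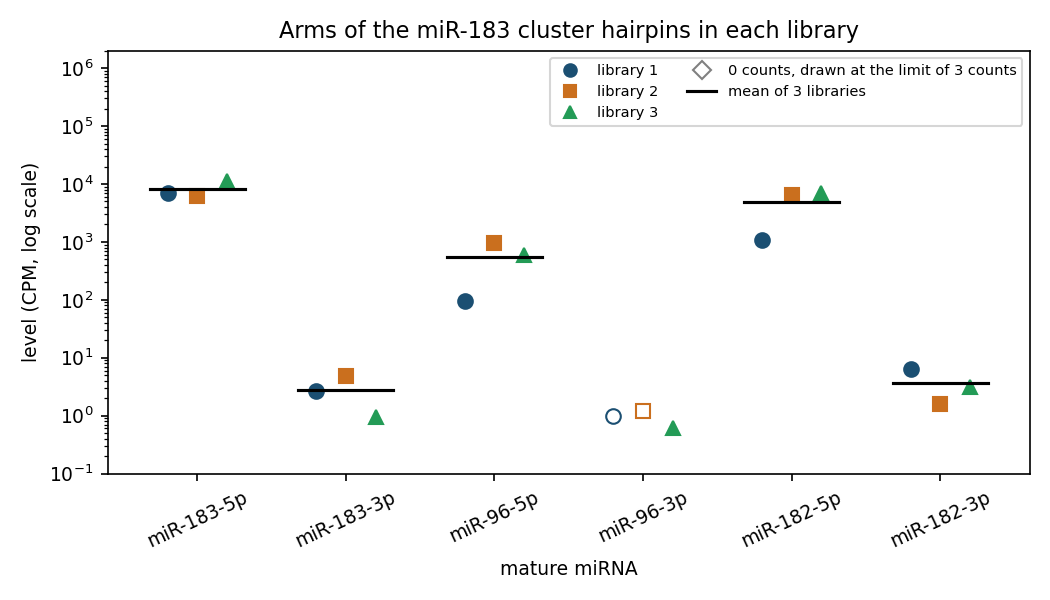
Level of each arm of the 3 hairpins in CPM (log axis), with 1 point per library and a line at the mean of 3 libraries where each library had a count; open symbols are counts of 0 drawn at the limit of 3 counts. The 5p arms lie between 96.7 and 11087 CPM and the 3p arms at 6.31 CPM or below, and library 1 is the lowest point for miR-96-5p and miR-182-5p. For miR-183-5p library 2 is the lowest with the library totals plotted and with the authors' normalized values (RPM). Library 1 is the lowest with TMM factors, DESeq2 size factors or totals without miR-21a-5p.

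MiR-183-5p, the first hairpin's main strand, had 21143, 15295 and 35575 counts, or 7027, 6143 and 11087 CPM, in libraries 1, 2 and 3. Its mean was 8086 ± 2637 CPM (SD, n = 3). Library 3 was the highest, and libraries 1 and 2 were close to each other. It ranked 23rd, 23rd and 17th of the 1915 miRNAs in the 3 libraries and 25th by the mean. Next to it by the mean stood let-7a-5p and miR-20a-5p above, at 9389 and 8447 CPM, and miR-151-3p and miR-191-5p below, at 6853 and 5969 CPM. The range of each of these 4 over the libraries overlapped that of miR-183-5p, so this part of the order lies within the spread.

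MiR-182-5p, the last hairpin's main strand, had 3214, 16038 and 22687 counts, or 1068, 6441 and 7071 CPM. Its mean was 4860 ± 3299 CPM (SD, n = 3). Library 1 was low, while libraries 2 and 3 were nearly level with library totals. The ranks were 60, 22 and 21 in libraries 1, 2 and 3. By the mean it stood between miR-99b-5p at 5011 ± 371 CPM and miR-22-3p at 4579 ± 846 CPM (SD, n = 3 each), whose ranges both lay inside its own.

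MiR-96-5p, from the middle hairpin, had 291, 2368 and 1892 counts, or 96.7, 951 and 590 CPM. Its mean was 546 ± 428.8 CPM (SD, n = 3), and 343 CPM without library 2. Library 1 was again the lowest and library 2 the highest. It ranked 140th, 62nd and 70th in libraries 1, 2 and 3, and its neighbours by the mean, among them miR-185-5p at 553 CPM and miR-142a-5p at 500 CPM, overlapped it in range. With library totals the ranges of miR-183-5p and miR-182-5p overlapped each other, and that of miR-96-5p lay below both. The gap to miR-182-5p was narrow, between 951 CPM for miR-96-5p in library 2 and 1068 CPM for miR-182-5p in library 1. With TMM factors those 2 ranges overlap, so the gap depends on the scaling.

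**Figure D2:**
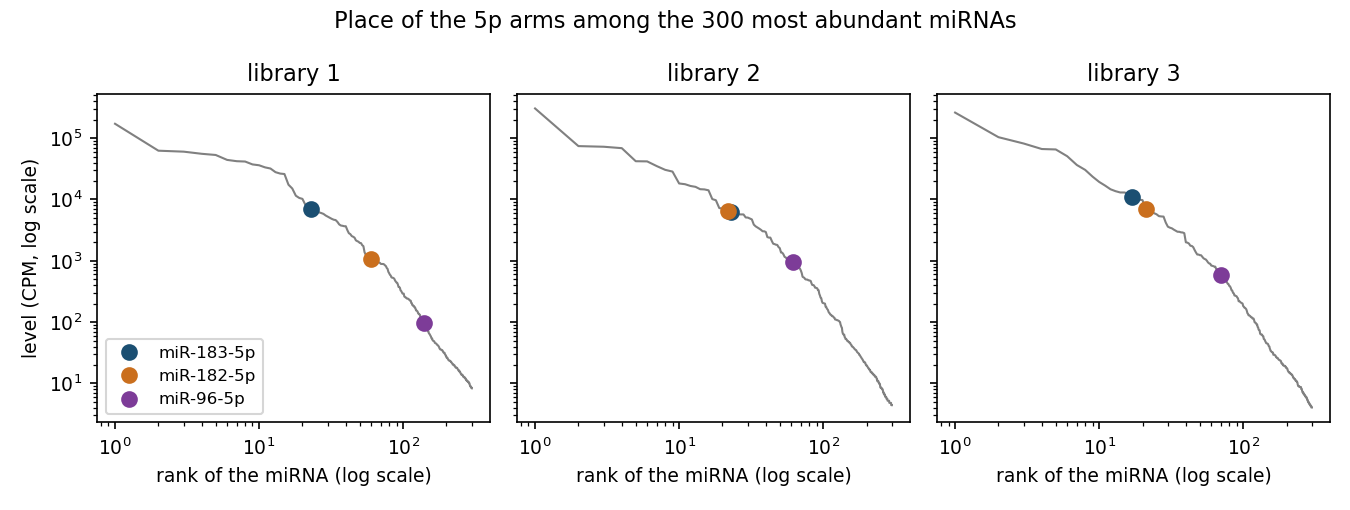
CPM against rank (both log axes) of the 300 most abundant miRNAs of each library as a line, with the 3 main 5p arms as points. MiR-183-5p sits at ranks 23, 23 and 17, miR-182-5p at 60, 22 and 21, and miR-96-5p at 140, 62 and 70 in libraries 1, 2 and 3.

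The 3p arms were rare. MiR-183-3p, the strand that is mostly discarded, had 8, 12 and 3 counts, or 2.66, 4.82 and 0.935 CPM, in libraries 1, 2 and 3. Its mean of 2.80 ± 1.95 CPM (SD, n = 3) was 1.80 CPM without library 2, and at these counts the libraries differ by a few reads. MiR-182-3p had 19, 4 and 10 counts and miR-96-3p 0, 0 and 2 counts.

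Within the miR-183 hairpin the 5p arm took 99.96%, 99.92% and 99.99% of counts in libraries 1, 2 and 3 (Wilson 95% intervals 99.93 to 99.98, 99.86 to 99.96 and 99.98 to 99.997). As a ratio, 5p over 3p was 2643 in library 1 and 1275 in library 2. It was 11858 in library 3, where 3 counts of 3p leave an exact 95% interval of 4057 to 57505. For miR-182 the 5p arm took 99.41%, 99.98% and 99.96%. In library 1 the 5p over 3p ratio of miR-182 was 169, with an exact 95% interval of 108 to 281, which lay below the intervals of libraries 2 and 3, 1566 to 14717 and 1233 to 4732. For miR-96 the 5p arm was at least 97-fold higher in library 1 and at least 789-fold higher in library 2, against a limit of 3 counts per library, and in library 3 the ratio was 946 with an interval of 262 to 7817. Such one-sidedness is common. Across the 157 hairpins with at least 60 summed counts, the main arm took a median 98.7% of pooled counts, 5p was the main arm in 78, and 31 hairpins had a higher share than miR-183 at 99.97%.

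The relation between the cluster's own products does not depend on how libraries are scaled. MiR-183-5p made up 85.8% of the 4 arms' counts in library 1, 45.4% in library 2 and 59.1% in library 3 (Wilson 95% intervals 85.3 to 86.2, 44.8 to 45.9 and 58.7 to 59.5), a mean of 63.4% ± 20.5 (SD, n = 3). The share of miR-182-5p was 13.0%, 47.6% and 37.7%, and that of miR-96-5p was 1.18%, 7.02% and 3.15%. Library 1 thus held the largest share of miR-183-5p and the smallest shares of the other 5p arms, and libraries 2 and 3 also differed by more than counting error.

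MiR-183-5p over miR-182-5p was 6.58 in library 1 (exact 95% interval 6.34 to 6.83), 0.954 in library 2 (0.933 to 0.975) and 1.57 in library 3 (1.54 to 1.59). In library 2, therefore, miR-182-5p was the more abundant of the pair. MiR-183-5p over miR-96-5p was 72.7, 6.46 and 18.8 in libraries 1, 2 and 3. Over all 3 libraries miR-182-5p over miR-96-5p was the steadiest of the 3 ratios, at 11.0, 6.77 and 12.0. That rests on library 1, since between libraries 2 and 3 miR-183-5p over miR-182-5p moved by a smaller factor. A count of one miRNA against another also carries how well each sequence is ligated and amplified, whose part was not tested. How many mismatches an assigned read could have is not stated, and miR-183-5p and miR-182-5p differ at 4 of the 22 bases compared.

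**Figure D3:**
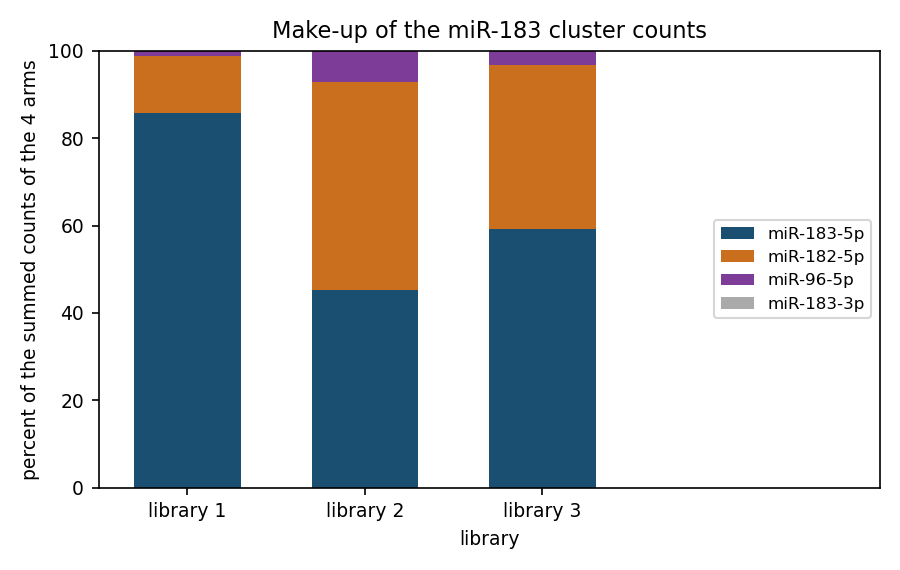
Percent of the summed counts of the 4 arms taken by each arm, with 1 bar per library. MiR-183-5p falls between 45.4% in library 2 and 85.8% in library 1, and miR-183-3p is too small to be seen.

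Differences between libraries were tested with a chi-square test of each miRNA's 3 counts, the totals of the libraries giving the expected shares, and p-values were adjusted by Benjamini-Hochberg over all those tested. It compares these libraries, not conditions. Of the 353 miRNAs with 30 or more counts in all, 90.1% were called at an adjusted p under 0.05. Of the 4 arms, 3 were tested and all 3 were called, a share that near-universal calls make uninformative, and miR-183-3p with 23 summed counts was not tested. The chi-square statistics on 2 degrees of freedom were 13527 for miR-182-5p, 5005 for miR-183-5p and 1946 for miR-96-5p, whose p-values are too small to be written as numbers.

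The size of the spread is more telling than the call. With library totals miR-183-5p varied 1.80-fold from its lowest to its highest library, and 113 of the 134 miRNAs that averaged 100 CPM or more varied more, the median of the 134 being 3.60-fold. With TMM factors, however, it varied 2.87-fold and 69 of the 134 varied more, at a median of 2.96-fold, so its small spread depends on the scaling. MiR-182-5p varied 6.62-fold, with 31 of the 134 above it, and miR-96-5p 9.83-fold, with 20 above it, and with TMM factors these were 12.0-fold with 15 above and 15.1-fold with 11 above. MiR-182-5p was 6.03-fold higher in library 2 and 6.62-fold higher in library 3 than in library 1, and miR-96-5p was 9.83-fold and 6.10-fold higher. Of the 134, 41 (30.6%) were lowest in library 1, and 55 (41.0%) with TMM factors. With library totals miR-182-5p differed 1.10-fold between libraries 2 and 3, which passed the chi-square test without library 1 (adjusted p = 4.89e-19) at 16038 and 22687 counts.

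Scaling changed part of this. With TMM factors each log2 ratio moved by -0.61 for library 1 over library 2 and by -0.86 for library 1 over library 3. MiR-182-5p and miR-96-5p kept their direction, at -3.21 and -3.91 for library 1 over library 2 and -3.59 and -3.47 for library 1 over library 3. MiR-183-5p did not. Its log2 ratio of library 1 to library 2 was 0.19 with library totals and 0.46 with the authors' normalized values (RPM). It was -0.42 with TMM factors, -0.46 with DESeq2 size factors and -0.28 with totals that leave out miR-21a-5p. For library 1 over library 3 it was -0.66 with library totals, -0.76 with RPM, -1.52 with TMM factors and -1.54 with DESeq2 size factors. Its highest level stood in library 3 under each of these scalings. For miR-182-5p the log2 ratio of library 2 over library 3 was -0.13 with library totals. It was -0.38 with TMM factors, -0.36 with DESeq2 size factors and -0.50 with RPM, so the near-equal levels of these libraries depend on the scaling.

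The pattern over the 3 libraries was set against that of the other 133 miRNAs that averaged 100 CPM or more, by the distance between log2(CPM + 1) values centred on their own mean. With 3 libraries this is a description. The miRNAs most like miR-183-5p were miR-106b-3p at a distance of 0.27, miR-10a-5p at 0.42, let-7i-5p at 0.44, miR-222-3p at 0.44 and miR-151-3p at 0.47. MiR-106b-3p, at 993, 694 and 1233 CPM, had the same order of libraries. The cluster's own miR-182-5p came 91st at 2.05 and miR-96-5p 107th at 2.46.

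MiR-182-5p was most like miR-200c-3p, a miRNA of epithelia, at a distance of 0.12, with 20.3, 142 and 152 CPM in libraries 1, 2 and 3. After it came miR-26a-5p at 0.20, miR-21a-5p at 0.33, miR-7b-5p at 0.39 and miR-7a-5p at 0.52, and miR-96-5p was 6th at 0.63. MiR-96-5p was most like miR-21a-5p at 0.33, followed by miR-200b-3p at 0.42, miR-200c-3p at 0.57, miR-182-5p at 0.63 and let-7d-5p at 0.70, with miR-183-5p in place 42. Over all 3 libraries the first and last hairpins of the transcript therefore had unlike patterns, and the middle and last had like ones. The likeness of the middle and last rests on library 1. With library totals, log2 ratios of library 2 over library 3 were -0.85 for miR-183-5p, -0.13 for miR-182-5p and 0.69 for miR-96-5p. MiR-200c-3p and miR-200b-3p averaged 105 and 113 CPM, and they passed the minimum of 100 CPM only through libraries 2 and 3. The same holds for miR-7b-5p, at 48.9, 204 and 266 CPM. Their low level in library 1 is thus partly a matter of that minimum. MiR-200a-3p, with a mean of 19.2 CPM, was not among the miRNAs compared.

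**Figure D4:**
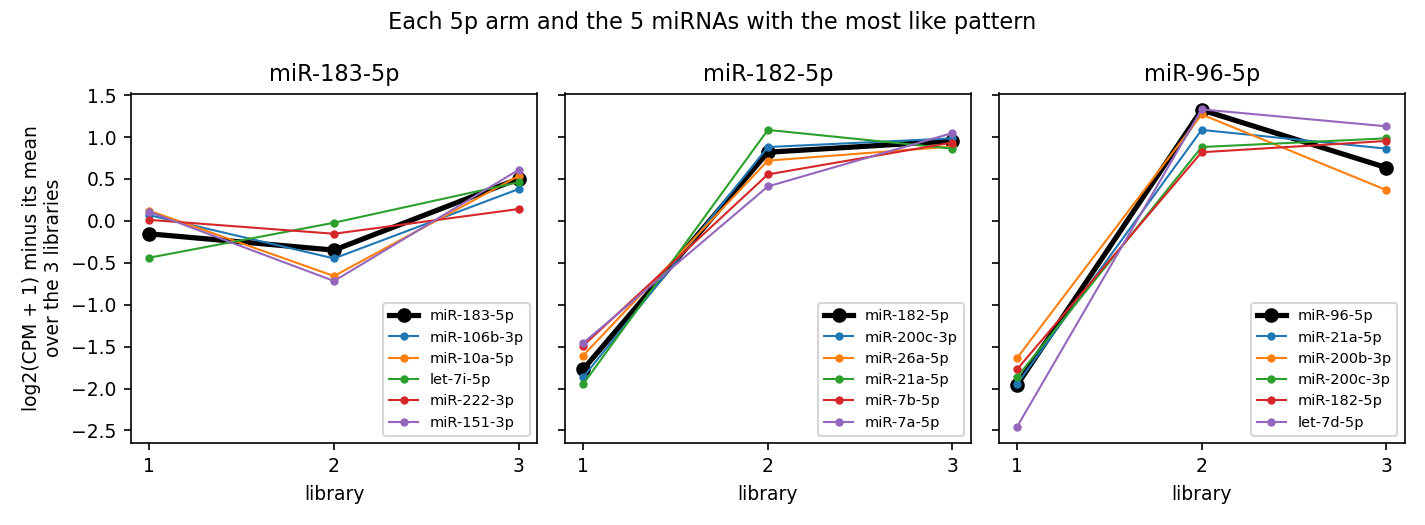
Log2(CPM + 1) minus its mean over the 3 libraries, for each main 5p arm (black) and the 5 miRNAs with the smallest distance to it; lines join the values of 1 miRNA and the libraries have no order. MiR-182-5p and miR-96-5p are low in library 1 together with miR-200c-3p and miR-21a-5p, whereas miR-183-5p varies less, with its highest value in library 3. The values are scaled to library totals; with TMM factors all curves shift by the same amount in each library, and miR-183-5p is then lowest in library 1 and spans 2.87-fold.

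Other cell types known for this cluster were looked at by their miRNAs. The epithelial list of 8, all detected in every library, summed to 104, 476 and 352 CPM in libraries 1, 2 and 3. Like miR-182-5p and miR-96-5p it was lowest in library 1, mostly through miR-200c-3p and through miR-200b-3p at 26.3, 204 and 108 CPM. MiR-200a-3p was nearly level at 16.3, 22.5 and 18.7 CPM, miR-205-5p was highest in library 2 at 17.6, 87.6 and 3.74 CPM, and miR-203-3p in library 3 at 15.3, 8.84 and 53.0 CPM. Its members miR-141-3p, miR-429-3p and miR-375-3p averaged under 5 CPM, and 5 of its 7 tested members were called by the chi-square test, against 90.1% of all miRNAs tested. The list's sum was below miR-182-5p (1068, 6441 and 7071 CPM) in each library. Beside miR-96-5p (96.7, 951 and 590 CPM) it was slightly higher in library 1 and lower in libraries 2 and 3. The list's part in the levels of the cluster was not tested.

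The list of 6 sensory organ and retina miRNAs summed to 9.31, 15.3 and 36.2 CPM. Its members miR-124-3p and miR-204-5p had no counts in any library, so each library's level could be at most 0.935 to 1.20 CPM. MiR-211-5p had 1 count in all, miR-9-5p 5.65, 10.8 and 14.0 CPM, miR-184-3p 1.99, 1.20 and 14.3 CPM, and miR-129-5p 1.33, 3.21 and 7.79 CPM. The 3 tested members of this list were all called, as 90.1% of all miRNAs tested were. Of the 4 lymphocyte miRNAs, miR-150-5p had 0, 0 and 1 counts and miR-31-5p 1, 2 and 0 counts. MiR-138-5p had 8, 1 and 2 counts, and the list's sum of 742, 957 and 424 CPM was almost all miR-181a-5p, which other cells make too.

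The serum and red cell list of 4 summed to 411, 576 and 1516 CPM in libraries 1, 2 and 3, mostly as miR-122-5p of liver. It was highest in library 3, as was miR-183-5p. The red cell miRNAs miR-451a and miR-486a-5p were highest in library 1 instead, at 33.9 and 54.2 CPM. The part of serum RNA in the level of miR-183-5p was not tested.

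Unequal levels of mature arms between hairpins of 1 cluster were common among the clusters of the tables. How they arise was not tested. The cluster was set beside 20 others, each hairpin by its most abundant arm. Its hairpins summed to 13491 CPM by the mean, below 7 of the 20, which included miR-23b/24, miR-17/92 and miR-106b/25. Its highest hairpin stood 14.8-fold above its lowest by the mean, and in 9 of the 20 that ratio was larger, with a median of 10.1 and a range of 1.05 to 232. This value depends on the library, at 72.7 in library 1, 6.77 in library 2 and 18.8 in library 3, and without library 2 the means gave 26.4, with 5 of the 20 larger. The miR-17/92 cluster had the widest range, between miR-92a-3p and miR-18a-5p. Some sequences, such as those of miR-24, miR-16, miR-29b and miR-92a, are encoded in more than 1 place, so their counts cannot be credited to 1 cluster.

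The make-up of the cluster moved between libraries. The most abundant hairpin was not the same in each library for the miR-183 cluster, where miR-182-5p led in library 2, and for 4 of the 20 others. The share of 1 hairpin in its cluster moved by up to 40.4 percentage points between libraries for the miR-183 cluster, that of miR-183-5p, against a median of 15.2 points for the others. Of the 20, 1 moved more, miR-29b/29c, whose miR-29c-3p was at 14.0, 14.5 and 25.9 CPM. The 40.4 points rest on library 1, without which the move was 13.8 points, against a median of 4.37 points for the others, 2 of which moved more. Without library 2 it was 26.6 points, against a median of 13.6, and 3 of the 20 moved more. These are descriptions of 3 libraries, and the difference between clusters was not tested.

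**Figure D5:**
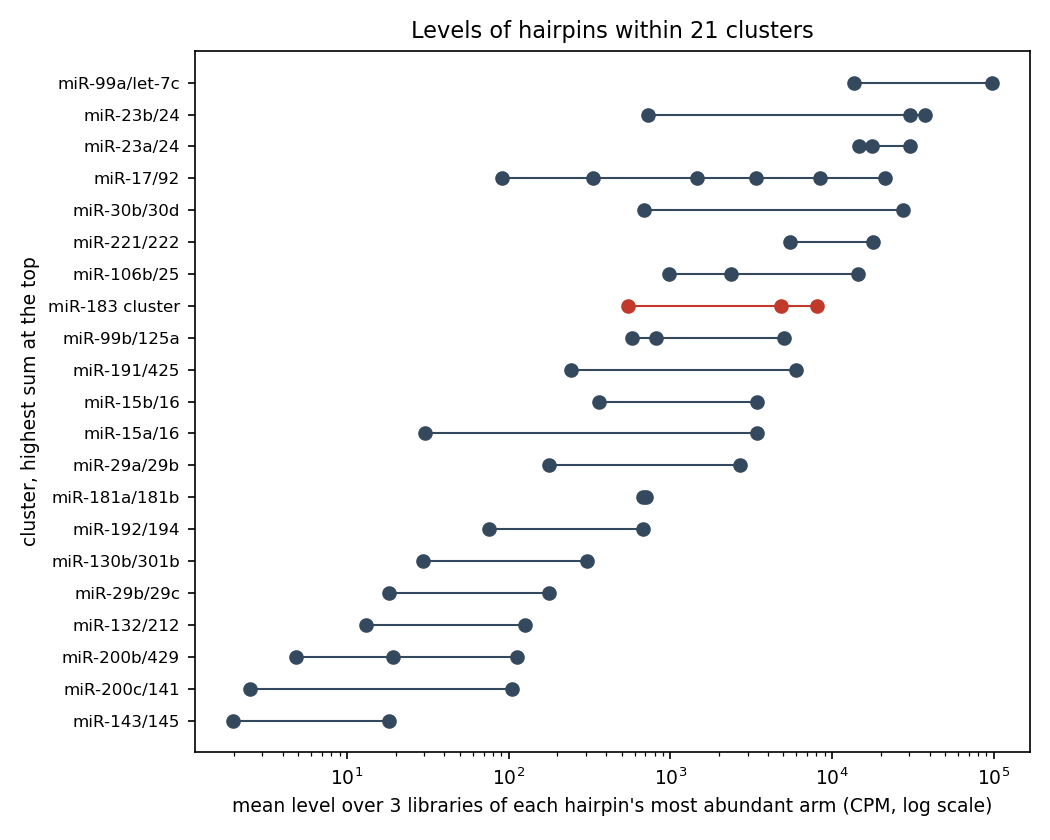
Mean CPM over 3 libraries (log axis) of the most abundant arm of each hairpin in 21 clusters, 1 point per hairpin, with the miR-183 cluster in red and clusters ordered by their sum. Its hairpins span 14.8-fold (26.4-fold without library 2), between 546 and 8086 CPM, within the range of 1.05 to 232 of the others.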

How the data were processed

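Small RNA from exosome pellets was sequenced in 3 libraries as single-end reads of 50 bases after adapter ligation and PCR, per the labels' protocols, with no molecular identifiers mentioned, so counts are of PCR products. Bcl2fastq, BWA and mm10 are named, without versions, per the submitters' processing notes, and trimming, mismatch limits and the handling of reads that match several miRNAs are not given in the sources used here. The authors deposited a raw count per mature miRNA and a normalized value (RPM), whose denominators of 14047692, 13995845 and 14002577 were worked out from the deposited columns. MiRNA counts are 21.4%, 17.8% and 22.9% of these denominators, so counts were scaled to each library's miRNA total (CPM).

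Arms were matched by name, and sequences came from RefSeq tables (GRCm38.p6, the files' build being mm10). Tools were Python 3.11.15, scipy 1.17.1, R 4.3.3, edgeR 4.0.16 (TMM factors), DESeq2 1.42.0 (size factors) and RNAfold 2.7.2. The chi-square test, the summed count minimums of 30 (miRNAs) and 60 (hairpins) and the pseudocount of 1 are described with the results. The test was tried on simulated counts with counting error only, which says nothing about spread between libraries beyond that error. EdgeR had no contrast to test in 1 group. Named miRNAs were the members and other arms of their hairpins, the 2 neighbours on each side by mean CPM, the 5 most like patterns, miRNAs with the same seed, the marker lists and the main arms of 21 clusters. The members, lists and clusters were chosen with earlier results of these data known.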

Additional observations from a re-analysis of the deposited data

How the results depend on the processing

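The authors' RPM has a larger denominator, and with it the means were 1713 for miR-183-5p, 0.547 for miR-183-3p, 108 for miR-96-5p and 998 for miR-182-5p, and the 4 arms took 0.282% of it. Leaving out each library in turn put the rank of miR-183-5p by the mean between 20 and 25 and the number of miRNAs called by the chi-square test between 177 and 284, against 318 with all 3 libraries. The lowest count was without library 1, when 288 miRNAs were tested and 61.5% called. The 3 tested arms were called under each setting of the test. MiR-183-3p, tested once the summed count minimum was 10, was called there by the chi-square test (adjusted p = 0.0245). At that minimum 78.2% of the 468 miRNAs tested were called. The other means stayed within 1 SD with TMM factors, DESeq2 size factors, totals without miR-21a-5p and each library left out. The 5 patterns most like miR-183-5p were the same 5 with a pseudocount of 10; TMM factors, which shift all miRNAs of a library alike, cannot change these distances much by construction and are no check of them. The spreads under other scalings and the cluster values without each library were added after seeing the data. No paired analysis was possible because there is 1 group. Depth limits the 3p arms, at 0 to 19 counts per library.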
